A study of Mus musculus with 10 samples.

Results

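Axon guidance ligands and receptors are described here by the OTX2 peaks that the deposited tables assigned to them. Members were the genes given as nearest gene of at least 1 peak, in epiblast stem cells (EpiSCs) or in definitive endoderm (DE), whose symbol belongs to the semaphorins, plexins, neuropilins, ephrins, Eph receptors, Slits, Robos, netrins or netrin receptors. They numbered 57 of the 19974 gene names in the tables, and 57 of the 70 genes of these 9 families in the RefSeq gene table. Because the tables themselves chose the members, peak counts at members are given as a description without a test.

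OTX2, a homeodomain transcription factor, was mapped with CUT&RUN, in which an antibody directs a nuclease to a chromatin protein and the released DNA is sequenced. All tagged samples came from 1 mouse line, 7H OTX2-dTAG-EGFP, on a BL6/129 hybrid background, in which OTX2 carries the HA epitope seen by the antibody. The samples were 2 anti-HA and 3 IgG samples of tagged EpiSCs, 2 anti-HA samples and 1 IgG sample of tagged DE, and, from the parental line 5.8 without the tag, DE with anti-HA (1) and with IgG (1), each of 500000 cells. EpiSCs, a culture model of the epiblast before gastrulation, were kept in N2B27 to which NVP (175 nM), FGF2 (12.5 ng/ml) and Activin A (20 ng/ml) had been added. DE, the precursor of gut epithelium, was derived from them in CDM in 2 steps, 16 h in CHIR (3 µM) plus Activin A (40 ng/ml) and 24 h in LDN (100 nM) plus Activin A (100 ng/ml), before live cells were sorted with DAPI. Both states thus share the tagged allele, and every value of the 2 HA lists compared comes from that single line. Peak lists hold no expression values, so the identity of the cells was not checked against marker genes.

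The EpiSC HA list held 6319 peaks and the DE HA list 42711. Both replicates of a state had been pooled into 1 list, so no value below has a replicate spread, and read depth is unknown. Intervals are 95% intervals, Wilson for shares, exact Poisson for counts and exact binomial for ratios of DE to EpiSC counts. They cover counting error only, neighbouring peaks are not independent, and they compare 2 lists rather than 2 conditions.

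Guidance molecules steer growing axons and migrating cells by attraction or repulsion at the cell surface. Semaphorins signal through plexins, with neuropilins as co-receptors for the secreted class 3 members. Ephrins are membrane-bound ligands of the Eph receptor tyrosine kinases and set boundaries between cell groups, secreted Slits repel through Robo receptors, and netrins act through Dcc, Neo1 and the Unc5 receptors. Many of the same molecules act in early embryos, where ephrin and Eph signalling separates tissues.

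Among the 60 family genes with a promoter entry, Eph receptors had the most promoters that carried a peak, in both states. Genes without an entry, among them Sema3b, Sema3f and Sema6a, could not be counted. Of 76 RefSeq promoter windows of family genes (250 bases before to 50 after a transcript start), 23, of 21 genes, overlapped a DE peak (30.3%, against 18.3% of all 32851 windows) and 3 overlapped an EpiSC peak (3.95%, against 6.33%). Eph receptors held 8 of the 23 and all 3 of the EpiSC windows, out of 15 windows. The 3 promoters with a peak in both lists belonged to Ephb3, Ephb4 and Epha1, receptors for ephrins. Their sequence outside the transcribed region is printed 5′ to 3′ on the gene's strand from RefSeq, GRCm38.p6, because these are the only start sites among the windows of family genes where both lists had a peak. Capitals mark bases covered by both an EpiSC and a DE peak. The stretches lie at chr16:21204545-21204619 (plus strand), chr5:137349859-137350108 (plus strand) and chr6:42373315-42373518 (minus strand).
Ephb3: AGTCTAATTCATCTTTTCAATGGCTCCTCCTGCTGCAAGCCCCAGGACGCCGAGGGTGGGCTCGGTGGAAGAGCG
Ephb4: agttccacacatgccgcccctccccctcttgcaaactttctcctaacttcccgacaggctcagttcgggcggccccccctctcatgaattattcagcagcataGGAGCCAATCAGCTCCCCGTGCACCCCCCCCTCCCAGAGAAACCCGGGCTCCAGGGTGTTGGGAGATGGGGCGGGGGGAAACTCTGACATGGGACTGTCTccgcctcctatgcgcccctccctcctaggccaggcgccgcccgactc
Epha1: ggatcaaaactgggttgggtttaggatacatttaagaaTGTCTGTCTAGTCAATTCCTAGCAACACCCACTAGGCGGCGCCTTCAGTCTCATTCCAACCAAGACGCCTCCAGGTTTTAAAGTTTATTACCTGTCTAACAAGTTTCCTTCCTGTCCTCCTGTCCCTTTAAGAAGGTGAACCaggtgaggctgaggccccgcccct

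Promoters with a DE peak only included 2 Eph receptors and 2 transmembrane ephrins that are shown as the contrasting set. Here capitals mark bases covered by the DE peak. They lie at chr4:28812881-28813065 (plus strand), chr9:102354694-102354943 (minus strand), chr8:8661243-8661492 (minus strand) and chrX:99135811-99136060 (plus strand).
Epha7: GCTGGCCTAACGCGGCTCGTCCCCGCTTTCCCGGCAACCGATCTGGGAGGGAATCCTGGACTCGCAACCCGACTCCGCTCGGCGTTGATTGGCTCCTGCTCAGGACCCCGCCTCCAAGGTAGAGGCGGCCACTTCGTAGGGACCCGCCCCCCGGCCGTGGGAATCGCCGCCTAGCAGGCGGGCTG
Ephb1: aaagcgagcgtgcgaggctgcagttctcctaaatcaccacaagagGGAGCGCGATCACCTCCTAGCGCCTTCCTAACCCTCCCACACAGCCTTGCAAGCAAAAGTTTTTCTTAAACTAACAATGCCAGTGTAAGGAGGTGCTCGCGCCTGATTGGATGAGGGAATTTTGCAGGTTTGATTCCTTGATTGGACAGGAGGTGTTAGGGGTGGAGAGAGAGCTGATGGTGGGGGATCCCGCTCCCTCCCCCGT
Efnb2: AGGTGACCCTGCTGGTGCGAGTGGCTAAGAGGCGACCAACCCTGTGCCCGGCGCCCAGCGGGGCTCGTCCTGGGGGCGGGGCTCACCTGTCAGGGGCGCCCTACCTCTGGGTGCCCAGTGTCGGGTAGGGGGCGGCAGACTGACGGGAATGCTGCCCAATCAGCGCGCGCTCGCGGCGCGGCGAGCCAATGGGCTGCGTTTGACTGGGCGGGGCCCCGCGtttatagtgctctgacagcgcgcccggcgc
Efnb1: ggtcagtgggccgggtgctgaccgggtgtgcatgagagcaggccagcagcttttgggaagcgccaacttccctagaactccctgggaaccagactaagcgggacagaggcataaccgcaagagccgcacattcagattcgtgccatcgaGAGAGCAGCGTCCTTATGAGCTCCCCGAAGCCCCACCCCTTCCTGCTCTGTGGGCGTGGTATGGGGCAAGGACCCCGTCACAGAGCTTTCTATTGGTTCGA

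The homeodomain motif TAATCC (reverse complement GGATTA) and its shorter core GATTA (reverse complement TAATC, which lies within TAATCC) were searched on both strands of the full windows. Neither occurred in any of the 23 member windows with a DE peak, and by the limit of 3 counts a count of 0 allows a share of up to 13.0% (Wilson, 14.3%). TAATCC was present in 7.06% of all windows and in 7.98% of all those with a DE peak, and GATTA in 22.0% and 18.3%. Member windows without a DE peak also held few, with TAATCC in 1 of 41 and GATTA in 3 of 41 (7.32%), against 22.9% for GATTA over all windows with no HA peak. A missing match says only that these letters are not in the window. The median GC content of the 23 windows was 64%, against 60.7% over all windows with a DE peak and 52.7% over all windows.

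Guidance genes were named for 274 DE peaks and 25 EpiSC peaks. In DE 56 of the 70 family genes were named, or 80.0%, where 50.4% of 21900 protein-coding genes were. In EpiSC 16 were named, or 22.9%, against 15.3%. The deposited name matched a gene of the RefSeq table for 79.9% of DE and 82.8% of EpiSC peaks. A protein-coding gene listed under another symbol thus counted as not named in the comparison shares. The split was 15 genes in both lists, 41 in DE only and 1, Sema3c, in EpiSC only. The 15 were 26.8% of the DE-named members, beside 28.9% of all protein-coding genes named in DE. Members took 0.642% of the DE list (0.570 to 0.722) and 0.396% of the EpiSC list (0.268 to 0.583). Ligands and receptors, 35 genes each, had equal DE totals of 137 peaks, with 13 EpiSC peaks at ligands and 12 at receptors.

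DE peaks were concentrated on a few genes. The 7 members with 10 or more held 118 of the 274 peaks (43.1%), and 0.918% of all protein-coding genes reached that number. Among the remaining members 24 had 3 to 9 DE peaks, 9 had 2 and 16 had 1.

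**Figure D1:**
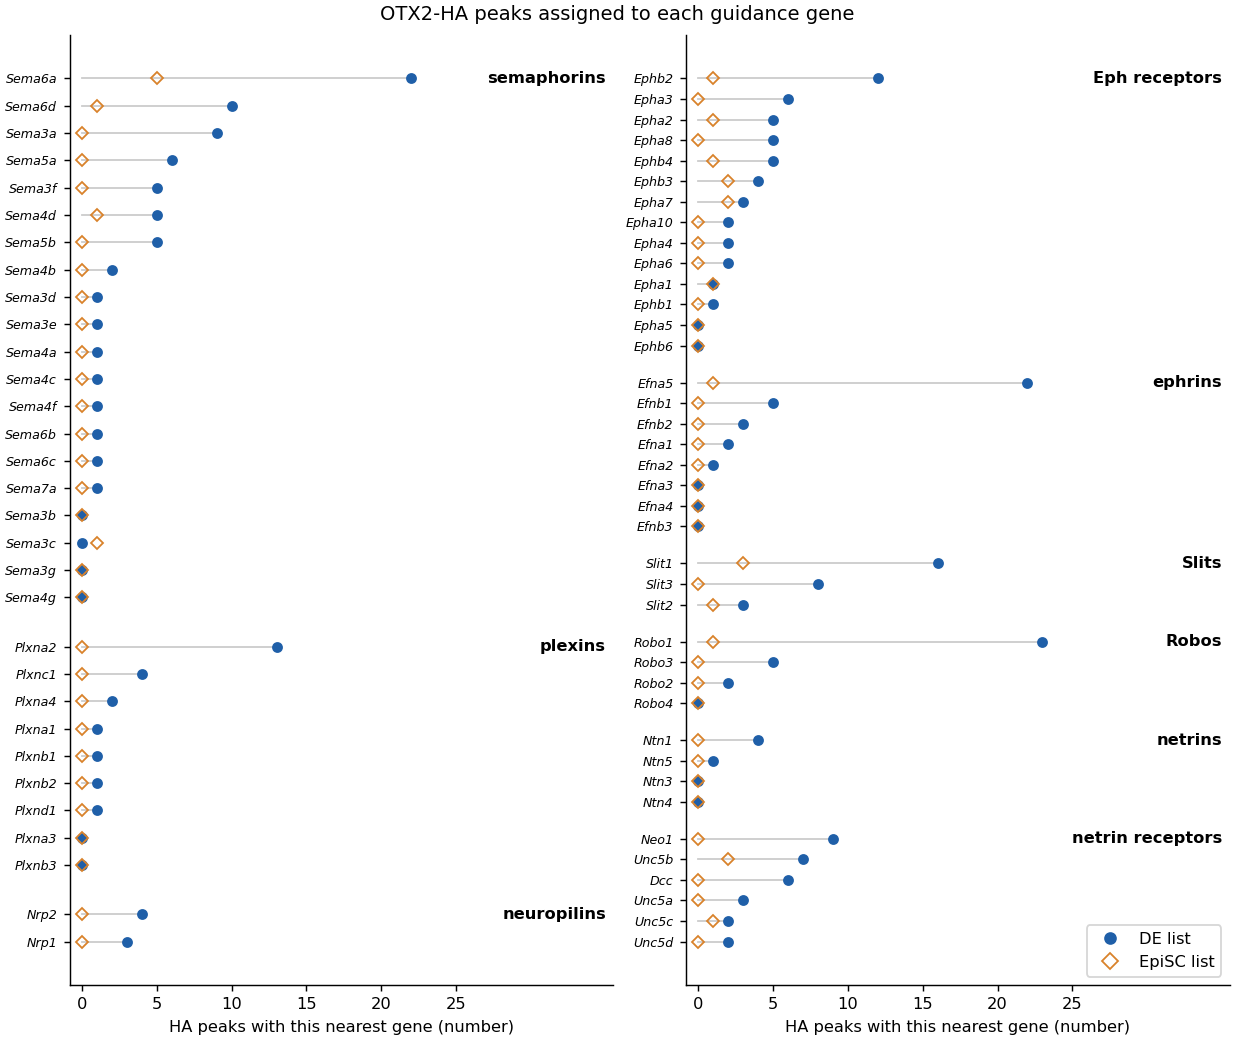
Number of HA peaks (horizontal axis) whose deposited nearest gene is each of the 70 family genes (rows, grouped by subfamily). Filled circles are the DE list and open diamonds the EpiSC list. Robo1, Efna5 and Sema6a stand farthest to the right with 23, 22 and 22 DE peaks, and Sema3c is the one gene with an EpiSC peak alone.

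Longer genes were given more peaks, with a mean of 0.669 DE peaks over protein-coding genes under 20 kb and 4.70 at 400 kb and over. Family genes had a median length of 53.6 kb and all protein-coding genes 17.1 kb, so the counts were set beside the number expected from the mean over protein-coding genes of the same length class. For genes under 20 kb, 47.6% of the family and 38.3% of all genes were named in DE. The pairs were 100% and 57.1% at 20 to 50 kb, 90% and 69.7% at 50 to 150 kb, 85.7% and 77.8% at 150 to 400 kb, and 100% and 82.7% at 400 kb and over. The family was above all genes in each of the 5 classes. Classes do not remove length fully, since the family's median was 12.5 kb against 6.31 kb in the shortest class and 119.2 kb against 78.7 kb at 50 to 150 kb. In EpiSC the order varied, with 9.52% against 12.3%, 14.3% against 16.8%, 40% against 19.7%, 42.9% against 24.3% and 18.2% against 22.4% in the same classes.

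Summed over the family by deposited name, the DE count was 1.86 times the length-class expectation of 147.6 peaks (1.64 to 2.09). The EpiSC count was 1.46 times its expectation of 17.1 (0.947 to 2.16). Without Robo1, Efna5 and Sema6a there were 207 DE peaks where 137.6 were expected, and the EpiSC value was 1.11 with 18 peaks.

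**Figure D2:**
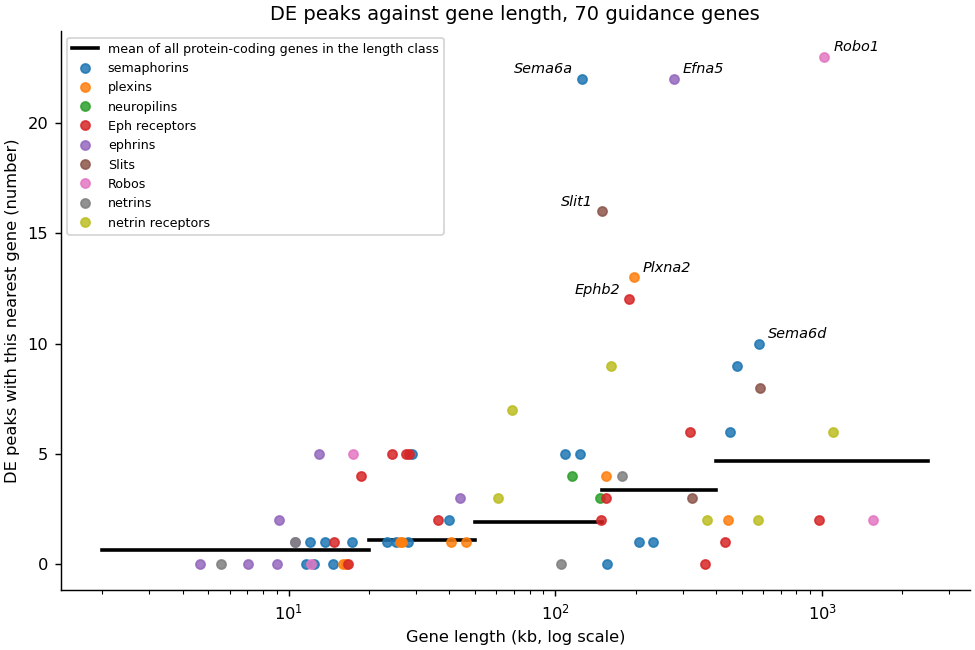
DE peaks per gene against gene length (log axis) for family genes, with the mean of all protein-coding genes in each of the 5 length classes. The family mean was 6.7 peaks at 50 to 150 kb against 1.91 over all genes, and 6.45 against 4.70 at 400 kb and over.

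The DE list named members 10.96 times as often as the EpiSC list (7.27 to 17.2), against 6.76 for the whole lists and 6.13 for protein-coding genes. Over all protein-coding genes the same ratio went from 4.45 under 20 kb to 13.7 at 400 kb and over, and the value expected for the family's lengths was 8.64, inside the interval. The ratio depended on the territory counted. With peak centres inside the family genes, taken from RefSeq positions without the deposited names, there were 23 EpiSC and 281 DE peaks, a ratio of 12.2 where 10.7 was expected from length. Territory within 50 kb of a family gene takes in the surroundings of neighbouring genes. It held 81 EpiSC (1.28%) and 533 DE peak centres (1.25%), a ratio of 6.58 (5.20 to 8.42), at 37 and 69 genes. Of family genes under 20 kb 95.2% had a DE centre that near, against 76.5% of all protein-coding genes. In the longer classes it was 100%, against 87.7% to 97.2%. The EpiSC share over all genes was not computed. Counted once for each family gene in reach, the totals were 82 EpiSC and 547 DE peaks, a ratio of 6.67 where 6.42 was expected from length. When the DE list was cut to its 6319 widest peaks, the length of the EpiSC list, 48 DE peaks at 20 members remained beside the 25 EpiSC peaks at 16. None of these ratios was tested for a difference between the states.

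Many peaks inside the genes were given another name. How often this happens over all protein-coding genes was not computed, so it is not read as particular to these families. Of 281 DE peak centres inside family genes, 35.9% carried another name in the table, as did 11 of 23 in EpiSC. Those 11 were 3 in Ephb1, 2 each in Ntn1 and Slit3, and 1 each in Epha1, Epha4, Sema3e and Sema4b. All 14 DE peaks inside Ephb1, an Eph receptor, had other names, of which Gm37945 took 8. Slit3, a secreted repellent, had 17 of 21 DE peaks under other names, Plxna4 7 of 9, Ntn1 5 of 8, Unc5d 6 of 7, Slit2 6 of 8 and Robo2 5 of 7. Epha4 and Nrp1 each had 5 of 6 given to a microRNA gene, Mir6352 and Mir1903. Counted by gene body, the family total was 1.47 times its length expectation in DE (1.30 to 1.65) and 1.29 times in EpiSC (0.819 to 1.94). Counted within 50 kb of each gene, it was 1.47 times in DE (1.35 to 1.60) and 1.42 times in EpiSC (1.13 to 1.76).

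By deposited name, ephrins were the densest, with 8.78 DE peaks per 100 kb of gene (6.04 to 12.3), against 2.45 over all protein-coding genes. Semaphorins had 2.68, neuropilins 2.67, Slits 2.54, plexins 2.38, Eph receptors 1.75, netrins 1.68, netrin receptors 1.24 and Robos 1.15. Relative to length class, ephrins were again highest at 3.88 (2.67 to 5.45), followed by Robos at 2.79 (1.89 to 3.99) and Slits at 2.71 (1.78 to 3.94). The values for neuropilins (1.83), semaphorins (1.82), Eph receptors (1.54), netrin receptors (1.45) and plexins (1.33) lay between these and netrins (0.756), and their intervals overlapped.

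Single genes carried several of the values relative to length class. The value for ephrins was 2.14 without Efna5, that for Robos 1.16 without Robo1 and that for Slits 1.36 without Slit1. The ephrin density did not fall without Efna5 and was 11.3 DE peaks per 100 kb, from 11 peaks over 97.5 kb of gene. Semaphorins were at 1.33 without Sema6a, Eph receptors at 1.29 without Ephb2 and plexins at 0.72 without Plxna2. Each gene left out was the one with the most DE peaks in its subfamily, a choice that favours a lower value. Counted by gene body, ephrins were at 3.10, with 17 of their 20 peaks in Efna5, Slits at 3.00 and Robos at 1.79. Within 50 kb the observed count over the length-class expectation was 2.36 for Slits (1.76 to 3.10) and 2.11 for ephrins (1.62 to 2.70).

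**Figure D3:**
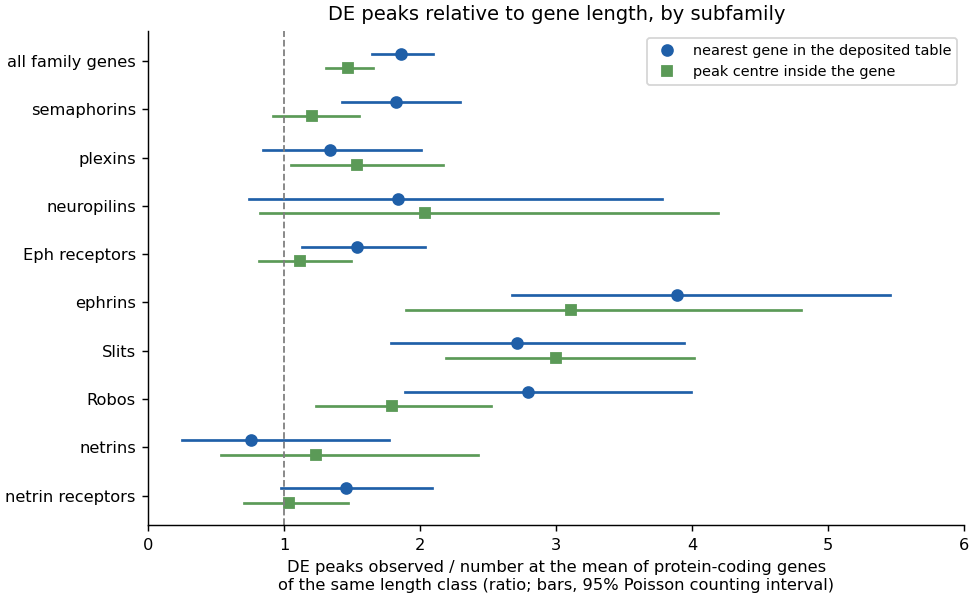
DE peaks observed over the number expected from gene length, by subfamily, with exact Poisson intervals (bars) that cover counting error only. Counts by deposited nearest gene and by gene body are both drawn, and ephrins and Slits are high in both, at 3.88 and 2.71 by name and 3.10 and 3.00 by body.

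Semaphorins, the largest ligand family, were named for 72 DE and 8 EpiSC peaks, with 17 of 20 genes named. Transmembrane class 6 members took 34 DE and 6 EpiSC peaks in 4 genes, of which Sema6a alone had 22 and 5. The secreted class 3, of 7 genes, took 16 DE peaks at 4 of them and 1 EpiSC peak at Sema3c. Sema6a, which signals through A-type plexins, had 22 DE and 5 EpiSC peaks. Of these, 11 DE peaks and 1 EpiSC peak were inside the gene (chr18:47245254-47371200), and 11 DE and 4 EpiSC peaks lay to its right, the farthest 332.8 kb away. Each of its 5 EpiSC peaks overlapped a DE peak. Sema6d had 10 DE peaks and 1 EpiSC peak, none shared, and the widest member peak of either list, 1121 bp at chr2:124639006-124640126. Sema3a, a secreted repellent read through neuropilin-1, had 9 DE peaks, all in the middle part of a gene cut into 3 equal parts, and none in EpiSC. The single Sema3c peak, 88 bp at chr5:17707266-17707353, was inside the gene. Sema5a had 6 DE peaks, Sema3f and Sema5b 5 each and Sema4d 5 with 1 EpiSC peak. Sema4b had 2, and 1 was assigned to each of Sema3d, Sema3e, Sema4a, Sema4c, Sema4f, Sema6b, Sema6c and Sema7a.

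Plexins, the semaphorin receptors, had 23 DE peaks in 7 of 9 genes and none in EpiSC, where 2.13 were expected from length. By position, 4 EpiSC peak centres lay within 50 kb of a plexin gene. Plxna2 held 13 of the 23, with 6 upstream of the gene, up to 182.7 kb away, and 6 of the 7 inside lying in the last of 3 equal parts. Plxnc1 had 4, Plxna4 had 2, and Plxna1, Plxnb1, Plxnb2 and Plxnd1 had 1 each. The neuropilins were named in DE alone, Nrp2 with 4 peaks, all upstream within 15.2 kb, and Nrp1 with 3.

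Ephrins were named for 33 DE peaks and 1 EpiSC peak. Efna5, a GPI-anchored ephrin, had 22 of them, with 16 inside the gene and 6 upstream as far as 66.0 kb. Its single EpiSC peak, chr17:62883094-62883260, lay 1860 bp upstream of the start and was contained in a DE peak. Of the others, Efnb1 had 5 DE peaks, of which 1 was inside the gene and 3 lay downstream as far as 71.9 kb, Efnb2 had 3, Efna1 2 and Efna2 1.

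Eph receptors had 48 DE and 8 EpiSC peaks, the latter at 6 genes. Ephb2 had 12 DE peaks, 11 of them inside the gene, and 1 EpiSC peak within a DE peak. Ephb3 had 4 DE and 2 EpiSC peaks, both shared, 1 at the promoter shown above and 1 at chr16:21232147-21232243, 8886 bp past the gene. Epha7 had 3 DE and 2 EpiSC peaks, of which 1 was shared, 31.1 kb upstream. Epha2 and Ephb4 had 5 DE peaks and 1 shared EpiSC peak each, and Epha1 had a single promoter peak in each list. Receptors with the deposited name in DE alone were Epha3 (6 peaks), Epha8 (5), Epha4, Epha6 and Epha10 (2 each) and Ephb1 (1), although 3 EpiSC peak centres inside Ephb1 and 1 inside Epha4 carried other names. Among members with at least 5 DE peaks, assigned peaks per 100 kb of gene were highest at Efnb1 (38.6), Robo3 (28.7), Ephb4 (20.5), Epha8 (18.2) and Epha2 (17.8). Many of these peaks lay outside the gene they were divided by, as 1, 3, 1, 1 and 2 of the 5 were inside in that order.

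Slits had 27 DE and 4 EpiSC peaks, and every EpiSC peak overlapped a DE peak. All 16 DE and 3 EpiSC peaks of Slit1 were inside the gene, 8 of the 16 between chr19:41655016 and 41668051, which also held the 3 shared sites. Slit3 had 8 DE peaks and Slit2 had 3 with 1 shared EpiSC peak. Robo1, a Slit receptor of 1020 kb, had 23 DE peaks, all inside the gene and 18 of them in the middle of 3 equal parts. A stretch of 84.4 kb at chr16:72615091-72699514 held 13, among them a peak over the internal transcript start at 72663149. The only EpiSC peak of Robo1, chr16:72677619-72677752, lay inside a DE peak of 421 bp. Robo3 had 5 DE peaks and Robo2, the longest gene of the family at 1555 kb, had 2.

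Netrins, secreted ligands, were named for 5 DE peaks, 4 at Ntn1 and 1 at Ntn5, and for none in EpiSC. By position, Ntn1 held 8 DE and 2 EpiSC peak centres. Among the receptors Neo1 had 9 DE peaks, 8 inside the gene and 6 of these in the first of 3 equal parts, and none in EpiSC. Unc5b had 7 DE and 2 EpiSC peaks, of which 1 was shared, at chr10:60814612-60814814. Dcc, the attractant receptor, had 6 DE peaks, all inside a gene of 1098 kb. Unc5a had 3, Unc5c 2 with 1 EpiSC peak of 285 bp that was not shared, and Unc5d 2.

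The 13 family genes named in neither list were Efna3, Efna4, Efnb3, Epha5, Ephb6, Ntn3, Ntn4, Plxna3, Plxnb3, Robo4, Sema3b, Sema3g and Sema4g. By position, 12 of them had a DE peak centre within 50 kb, and Sema3g had none. Among all protein-coding genes 76.5% under 20 kb, 91.9% at 50 to 150 kb and 94.4% at 150 to 400 kb, the classes of these genes, had one.

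**Figure D4:**
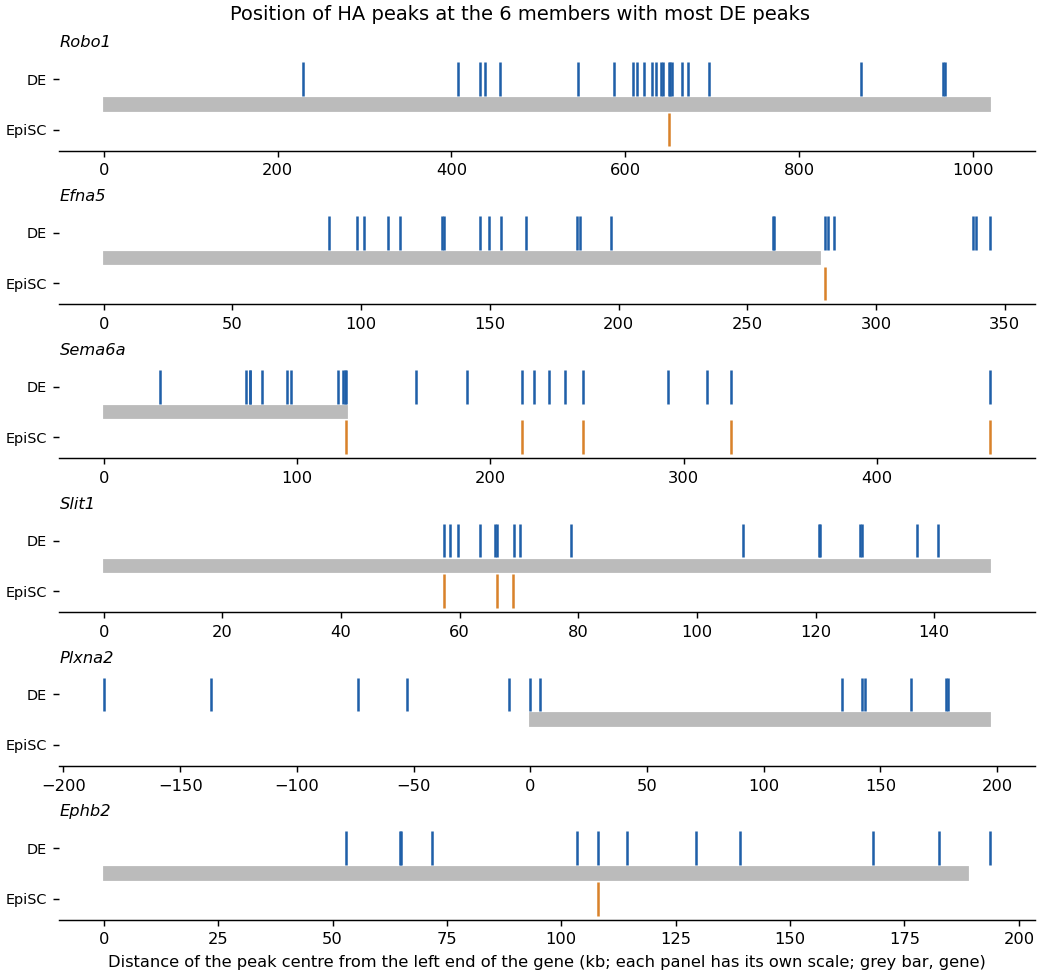
Positions of HA peaks around the members with the most DE peaks, as distance in kb from the left end of the gene, with the gene drawn as a grey bar, DE peaks as marks above it and EpiSC peaks below. The cluster in the middle of Robo1 and the 11 peaks to the right of Sema6a are visible.

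Most EpiSC peaks of members recurred in DE. Of 25, 19 had at least 1 bp in common with the DE list (76.0%, 56.6 to 88.5), against 78.8% of the whole EpiSC list. Conversely, an EpiSC peak lay under 19 of the 274 DE peaks (6.93%, 4.48 to 10.6), against 11.7% of the whole DE list, and 12.4% for the 533 peaks counted within 50 kb. The 6 EpiSC peaks that were not shared were at Epha7, Sema3c, Sema4d, Sema6d, Unc5b and Unc5c. Shared DE peaks were wider, with a median of 293 bp against 138 bp for the other members' peaks, as in the whole list (224 and 129 bp).

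Where the peaks lay relative to their gene is given without a test and without matching on length, beside all peaks named for a protein-coding gene. In DE 65.7% of member peaks had their centre inside the named gene (59.9 to 71.1), against 51.1%, and 52.7% with RefSeq assignment within 50 kb. By deposited name the share was highest in Robos at 93.3%, followed by netrin receptors at 86.2% and Slits at 81.5%, and was lowest in neuropilins at 14.3% (1 of 7) after Eph receptors at 43.8%. Within 1 kb of a start lay 28 of the 216 DE peaks whose gene has a strand in the promoter table (13.0%, against 27.1%) and 3 of 17 in EpiSC (17.6%, against 50.7%). Of the 274 DE peaks, 127 had another peak of the same gene within 5 kb.

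Control peaks at these genes were few. None of the 299 member HA peaks overlapped a peak of the 3 EpiSC IgG lists (202, 149 and 200 peaks) or of the 14 parental HA peaks, and a count of 0 allows up to 1.00% by the limit of 3 counts. Over the whole lists the share was 0.791% in EpiSC and 0.0819% in DE, so the count of 0 is not particular to these genes. No IgG list of DE was used, so the only control list of DE was that of the 14 parental peaks. A single IgG peak, of replicate 1, had its centre in a family gene, Robo1.

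Of 48 further guidance genes, among them co-factors and signal transducers, 43 were named in DE and 10 in EpiSC, for 170 and 14 peaks, where 50.4% and 15.3% of all protein-coding genes were named. Ablim3, Chl1, Draxin, Dscaml1 and Rac1 were named in neither list. The DE total was 1.57 times the length expectation, and the 14 EpiSC peaks compare with 12.9 expected. Flrt3, an adhesion protein that binds Unc5 receptors, had 12 DE peaks and 1 EpiSC peak in a gene of 13.3 kb.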

How the data were processed

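Peak intervals, not reads, were the starting point. The authors deposited 1 merged HA list per state, merged over 50 bp per the file names, and a table naming the nearest gene of each interval. Per the submitters' processing notes, Bowtie2 2.3.5.1, SAMtools 1.14, Picard 2.26.10, bedtools 2.30 and MACS2 2.2.6 were used with mm10, with no roles or order given. The calling threshold, the control and the annotation behind the nearest gene are not given in the sources used here. Both places where a label points to another group's files, EpiSC HA replicate 2 (the DE list) and the IgG sample of tagged DE (the HA files of DE), were read as slips. IgG peaks came per replicate for EpiSCs. All 149 intervals of replicate 2 recur in replicate 3, so these were not counted as independent. The marks for changed genes in the tables were not used.

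Gene positions were those of RefSeq for GRCm38.p6 (21900 protein-coding genes). Strand came from the RefSeq promoter table, which matched 60 of 70 family genes; Dcc, Efnb3, Ntn1, Plxna1, Plxna4, Sema3b, Sema3f, Sema6a, Slit1 and Unc5d were not matched. No genome sequence was used, so motifs were searched only in promoter windows and not in whole peaks as planned. Length classes were cut at 20, 50, 150 and 400 kb. Members and gene lists were chosen with earlier results of these data known. Named in full were the members with the most DE or EpiSC peaks, the densest among those with at least 5, the widest peaks, peaks near starts, and genes in EpiSC only or in neither list. Counts and intervals were computed with Python 3.11.15, pandas 2.3.3, NumPy 2.4.6 and SciPy 1.17.1, and the overlap function was checked on 5000 simulated intervals. Alternatives were another assignment, overlap, gene territory and the widest DE peaks.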

Additional observations from a re-analysis of the deposited data

How the results depend on the processing

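Under other settings 77 values stayed within the counting interval of the reported one (within the quartiles for widths and 1.5 times for counts) and 34 did not. Some of the 77 were fixed in advance. No member peak overlapped a control peak, so leaving out such peaks could not change a member count. A minimum width of 78 bp, that of the narrowest EpiSC peak, could not change an EpiSC count. The 4 values from 2 settings chosen after seeing the data, which left out the members with the most peaks, stayed within 1.5 times. Wide intervals hid some larger shifts, as neuropilins went to 5.34 (RefSeq within 50 kb) and 1.51 (50 kb added) and netrins to 1.01 (widest peaks) and 0.716 (50 kb added) DE peaks per 100 kb. With peaks assigned by RefSeq within 50 kb, 37 genes were named in EpiSC, with 81 EpiSC peaks (1.28%) and 533 DE peaks (1.25%), the shared part of the DE peaks was 12.4% and 52.7% lay inside the gene. DE peaks per 100 kb then came to 5.33 for semaphorins, 6.62 for plexins, 3.86 for Eph receptors, 16.5 for ephrins, 4.80 for Slits and 8.38 for netrins. When only the 6319 widest DE peaks were kept, 20 members and 48 peaks remained (0.760%) with a median width of 334 bp, 52.0% of EpiSC peaks overlapped a DE peak and 27.1% of DE peaks overlapped an EpiSC peak. Densities per 100 kb were then 0.633 for semaphorins, 0.310 for plexins, 0 for neuropilins, 0.255 for Eph receptors, 1.86 for ephrins, 0.282 for Slits, 0.192 for Robos and 0.129 for netrin receptors. With 50 kb added on each side of a gene they were 1.54 for semaphorins, 1.23 for plexins, 1.16 for Eph receptors and 2.81 for ephrins. An overlap of at least 50% left 4.01% of DE peaks shared, and deposited names within 50 kb put 72.9% inside the gene. The cause of these shifts was not tested. The IgG peaks at family genes ranged from 0 to 1 when a replicate was left out.

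No paired analysis was possible because each state has a single list of both HA samples, and leaving out an HA sample was not possible either. The motif searches in peaks, whole or around their centres, were not run. Without depth, a longer DE list and a deeper DE library cannot be told apart.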
